A study of Mus musculus with 441 samples.

Results

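Mouse neural precursor cells (NPCs) were compared, cell by cell, with the stem cells of the line they were made from. The members were chosen by label: the 54 cells labelled as NPCs in their own expression table and the 94 cells labelled 2i+LIF in the table of mouse embryonic stem cells (mESCs), together 148 of the 415 single cells of the series. Genes were taken by name where both tables list them, which gave 18449 names. Both groups come from v6.5, an established mESC line. The NPCs were made from it by differentiation in culture, selected in ITSFn, expanded on laminin in N2 medium with bFGF, and are called nestin-positive in the study's description. The reference cells were kept undifferentiated in 2i+LIF, where 2i stands for inhibitors of MEK and GSK3 and LIF is a cytokine that sustains self-renewal. Serum+LIF cells (90 and 93, on a pair of plates) and 84 Dgcr8 -/- cells, a knockout of a microRNA processing factor in the same background, were used only for setting a level beside the others. Cell identity, bFGF, the inhibitors, LIF and the plate change together between NPCs and 2i cells and cannot be told apart.

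Naive stem cells hold a network of transcription factors around Pou5f1, Nanog and Sox2 that represses lineage genes and keeps the cells dividing with a short G1 phase. Blocking MEK in 2i silences the output of FGF signalling, and blocking GSK3 relieves repression by Tcf factors. Neural precursors made in culture lose that network except for Sox2, take up neural regulators such as Pax6, Sox1 and the Notch target Hes5, build intermediate filaments of vimentin and nestin, and grow in response to FGF. Pax6 and Six3 also act in the eye, where they and Maf drive the crystallin genes of the lens.

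The promoters of 4 genes at the ends of this comparison are shown because the text returns to them: Cryaa, with the widest difference, Pax6 and Six3, the regulators that 2i cells lacked or nearly lacked, and Nanog, which most NPCs held at a low level or not at all. Each runs 5′ to 3′ from 250 bases before to 50 after the gene's start, from RefSeq on build GRCm38.p6, with CG dinucleotides in capitals since DNA methylation acts on them.
Cryaa (chr17:31677681-31677980, plus strand, 7 CG): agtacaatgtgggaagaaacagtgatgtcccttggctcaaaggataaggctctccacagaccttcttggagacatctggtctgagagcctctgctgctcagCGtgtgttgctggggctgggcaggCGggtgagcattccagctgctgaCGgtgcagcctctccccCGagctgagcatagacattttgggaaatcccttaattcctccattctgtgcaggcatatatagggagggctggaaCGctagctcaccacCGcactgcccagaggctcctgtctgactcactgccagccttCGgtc
Pax6 (chr2:105668646-105668945, plus strand, 18 CG): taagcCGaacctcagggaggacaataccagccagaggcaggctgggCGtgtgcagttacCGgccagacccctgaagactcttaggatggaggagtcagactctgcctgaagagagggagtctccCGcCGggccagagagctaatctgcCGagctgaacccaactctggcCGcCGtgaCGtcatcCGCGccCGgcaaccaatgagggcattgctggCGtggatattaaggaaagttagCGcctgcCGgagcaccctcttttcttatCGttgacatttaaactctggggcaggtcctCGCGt
Six3 (chr17:85620584-85620883, plus strand, 14 CG): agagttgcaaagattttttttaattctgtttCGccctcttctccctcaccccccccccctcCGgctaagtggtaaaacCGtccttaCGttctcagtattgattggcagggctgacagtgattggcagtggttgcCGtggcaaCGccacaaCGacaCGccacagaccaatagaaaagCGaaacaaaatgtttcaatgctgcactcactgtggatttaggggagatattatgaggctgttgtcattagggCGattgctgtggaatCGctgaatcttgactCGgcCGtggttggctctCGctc
Nanog (chr6:122707239-122707538, plus strand, 4 CG): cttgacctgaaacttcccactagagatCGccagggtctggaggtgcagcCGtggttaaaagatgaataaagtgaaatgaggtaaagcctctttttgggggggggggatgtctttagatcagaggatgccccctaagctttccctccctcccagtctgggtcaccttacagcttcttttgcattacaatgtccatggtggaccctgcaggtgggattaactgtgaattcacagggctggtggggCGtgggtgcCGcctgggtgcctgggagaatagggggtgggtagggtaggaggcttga
The 4 hold 7, 18, 14 and 4 CG dinucleotides in the order shown, and observed over expected CG of 0.294, 0.698, 0.747 and 0.192. Both regulators thus have CG-richer starts than either the crystallin gene or Nanog. This describes the letters of these windows only.

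RNA was read with SMART-Seq on C1 chips, so each library is 1 cell and each group is 1 plate. Cells of a plate are not replicates, and the tables were deposited separately, so no test was run and no p-value is given. A level is given in TPM, the relative abundance of a gene's transcripts within a library, which is scaled to transcript length. A difference is the mean over NPCs of log2(TPM + 1) minus that over 2i cells, and is not a fold. A gene was counted where TPM reached 10 in at least 10% of cells, taking the mean of the plates' shares, which left 10470 names. Over these the median difference was -0.96 and the median difference in the share of cells at TPM 10 was -15.5 percentage points, and both were subtracted from every gene (centred). A centred difference of at least 2 in either direction is called past the fold. A gene seen in NPCs alone or in 2i cells alone could be counted only if it was high there, so the share of counted genes past the fold is a description of these libraries. Intervals are exact binomial (Clopper-Pearson) 95% intervals and cover counting error over cells only.

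The number of reads is not kept in TPM, so depth is unknown, and detected genes stand in for it. At TPM 1 or more, NPCs held 5475 to 9660 genes (median 7351) and 2i cells 8121 to 10737 (median 9972.5). The names Cox2, Cytb, Atpase6 and mt-Nd4, of which the RefSeq table ties Cytb and mt-Nd4 to mitochondrial genes, took a median 13.8% of all TPM in NPCs (range 1.97 to 35.8) and 1.25% in 2i cells (range 0.632 to 3.67). Both moved with the groups for every result below, and their part in the results was not tested beyond refitting within cells of like detection and without those names. No 2 of the 415 libraries had identical values. The stem cell table holds only 13 names above 0 in 1 to 4 of its 361 cells, where the NPC table holds 3939 such names among 54 cells, so very rare expression is listed at 0 in 2i cells. A level of 0 is therefore given as listed at 0.

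Of the 54 NPC libraries, 4 stood apart from their label. They reached TPM 10 in 14, 19, 19 and 18 of the 20 core pluripotency genes, where the other 50 reached 0 to 8 and the 2i cells 16 to 20. In these 4 libraries Dppa5a stood at 3114, 7923, 7645 and 4491 TPM and Tdgf1 at 237, 1461, 873 and 135 TPM. They also held NPC transcripts, and the library with 14 core genes was mixed: it reached TPM 10 in 12 neural precursor genes, the NPC median, where the other 3 reached 4 each, and held Pax6 at 31.7, Six3 at 65.2 and Fos at 498 TPM. Cryaa stood at 557, 150.4, 320.1 and 74.9 TPM in the 4, below the median of the other 50 NPCs (3022 TPM). Rnf17 and Crxos1, at TPM 10 in 94 and 91 of 94 2i cells, were listed at 0 in all 4. Dnmt3l, a DNA methylation cofactor, stood at 288 and 230.1 TPM in 2 of them and averaged 2.59 TPM in 2i cells and 93.1 and 92.1 TPM on the serum plates. The 4 libraries were kept, and results are given with and without them where that moves a value.

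Over the counted genes, 10470 in all, 1450 (13.8%) were past the fold on the higher side in NPCs and 1254 (12%) on the lower side. Without the 4 libraries the counts were 1553 and 1383 of 10531. The same rule between the serum plates, which both hold serum+LIF cells, gave 22 genes (0.388%) higher and 14 (0.247%) lower of 5667. As deposited, with no centring, 616 genes were higher and 2720 lower, since the median gene was lower in NPCs. Higher calls with a centred difference not far above 2 rest on this centring, in many of the lists below. Such genes include Ncam1 (2.74), Notch1 (2.65), Notch3 (2.25), Smo (2.52), Tcf7l2 (2.76), Cdkn1a (2.03), Cdkn2c (2.06) and Sall2 (2.33). Among cells with 8036 to 9637 detected genes, the range both plates share, 13 NPCs and 26 2i cells remained, the median difference was -0.22, and 1156 genes were higher and 1176 lower. Of these 13 NPCs 3 were among the 4 libraries that stood apart. Without them, 10 NPCs and 26 2i cells (called cells of like detection below) had a median difference of -0.14, with 1398 genes higher and 1523 lower. Without the 4 mitochondrial-type names 1447 were higher and 1272 lower. The share of cells at TPM 10, also centred, was higher by at least 50 points in NPCs for 649 genes and lower by as much for 768. Under each of these settings many more genes lay past the fold between NPCs and 2i cells than between the serum plates.

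**Figure D1:**
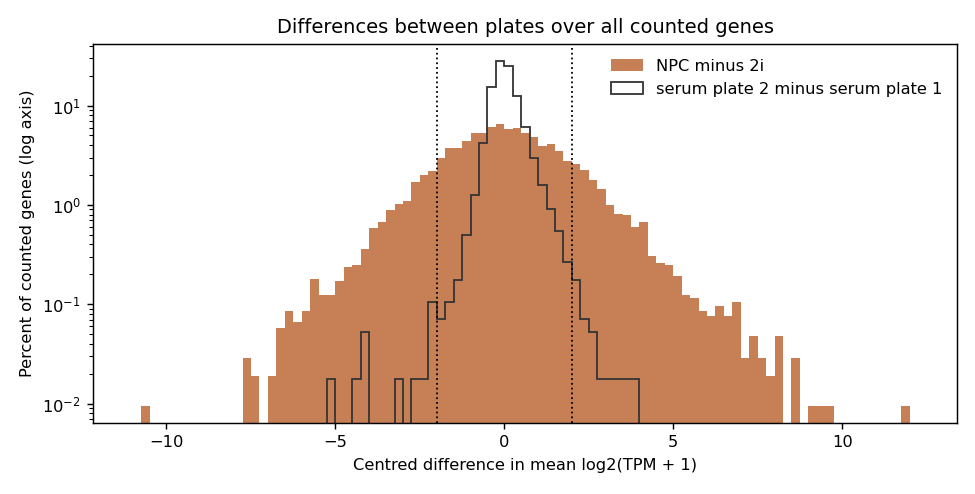
Percent of counted genes (vertical, log axis) by centred difference in mean log2(TPM + 1) (horizontal), for NPC minus 2i (filled, 10470 genes) and serum plate 2 minus serum plate 1 (line, 5667 genes); dotted lines mark a difference of 2 in either direction. The filled distribution is far wider, with 1450 and 1254 genes past the lines against 22 and 14 for the serum plates.

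Neural precursor genes were first set against the label. Of 35 listed genes, 32 stood in both tables and 19 were counted, 15 were past the fold on the higher side in NPCs and none on the lower side, with a median centred difference of 3.77 where that of all counted genes was 0 by construction. Without the 4 libraries 15 of 19 were higher, and among cells of like detection 13 of 20 were higher and 2 lower. Pax6, a homeodomain regulator of neural and eye progenitors, had a lowest, median and highest level of 0, 59.5 and 1952 TPM in NPCs, against 0, 0 and 16.4 TPM in 2i cells, and reached TPM 10 in 75.9% of NPCs (interval 62.4 to 86.5) and 2.13% of 2i cells (interval 0.259 to 7.48). Vim, the intermediate filament vimentin, had 58.2, 1019.8 and 3463 TPM in NPCs and 0, 44.6 and 154 TPM in 2i cells. All NPCs therefore expressed Vim, as did most 2i cells at a lower level, while Pax6 was uneven among NPCs and low in nearly all 2i cells. Nes, which encodes nestin, had 0, 7.75 and 181 TPM in NPCs and 0, 0 and 14.1 TPM in 2i cells, and reached TPM 10 in 46.3% of NPCs (interval 32.6 to 60.4) and 1.06% of 2i cells (interval 0.0269 to 5.79). RNA of the marker named in the study's description was thus below TPM 10 in 29 of the 54 NPCs. Nestin protein was not measured here, and NPC libraries held fewer detected genes than 2i cells. A level below TPM 10 therefore does not show that a cell lacked nestin.

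Other neural precursor genes past the fold were the progenitor factors Sox11 (mean 99.8 TPM in NPCs and 0.463 TPM in 2i cells), Sox9 (51.3 against 0 TPM) and Meis1 (35.2 against 1.002 TPM), the adhesion genes Cdh2, which encodes N-cadherin (79.7 against 0 TPM), and Ncam1 (100.4 against 18.5 TPM), and the Notch effector Hes1 (140.2 against 9.73 TPM). Msi2, an RNA-binding protein of progenitors (106 against 9.8 TPM), the matrix glycoprotein Tnc (75.4 against 0 TPM), the endothelin receptor Ednrb (89.96 against 0 TPM), Prom1 (27.7 against 0.507 TPM), Dach1 (7.32 against 0 TPM) and the receptor Notch1 (19.3 against 2.11 TPM) were also higher, each NPC mean being given first. Cdh2, Tnc, Sox9, Ednrb and Dach1 were listed at 0 in all 94 2i cells, and so could be counted only where they were high in NPCs. Sox2, which both neural and pluripotent cells use, was not past the fold, with 0, 9.49 and 257 TPM in NPCs and 12.5, 40.3 and 84.4 TPM in 2i cells. The 2i cells lay in a narrow band inside the wide spread of NPCs, and the centred difference was -1.32. Slc1a3 (-0.29), Meis2 (-0.94) and Mapt (-1.66) also lay between the limits.

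The 13 remaining members were too rare to be counted. Sox1, the earliest neuroectoderm marker of the list, reached TPM 10 in 9 of 54 NPCs and 1 of 94 2i cells, Zbtb16 in 7 of 54 NPCs and 0 of 94 2i cells, Hes5, a Notch target, in 6 of 54 NPCs and 0 of 94 2i cells, Id4 in 6 of 54 NPCs and 7 of 94 2i cells, and Sox3 in 2 of 54 NPCs and 0 of 94 2i cells. Olig2 and Msi1 each reached it in 1 of 54 NPCs and 1 of 94 2i cells. Gfap, Dll1, Pou3f3, Ptprz1 and Nr2e1 reached it in no cell of either plate, where 0 of 54 has an interval of 0 to 6.60%. Fabp7 and Gpm6a are listed in the stem cell table alone, at 0 in 2i cells, and Pou3f2 was not in both tables. Per cell, NPCs held 4 to 16 of the 32 genes at TPM 10 (median 12) and 2i cells 2 to 9 (median 5), with 39 NPCs above every 2i cell. Some neural precursor genes thus stood in most NPCs and others in few, and the plate is called NPC as its label has it.

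Among regional genes, 18 of 26 were in both tables and 3 were counted. Six3, a homeobox gene of the anterior neural plate and eye field, had 1.25, 33.5 and 377 TPM in NPCs and was listed at 0 in all 94 2i cells, and reached TPM 10 in 85.2% of NPCs (interval 72.9 to 93.4) and 0% of 2i cells (interval 0 to 3.85). Every NPC library held it, though some only at trace level. Msx1, a dorsal and facial mesenchyme homeobox gene, averaged 118 TPM in NPCs and was listed at 0 in 2i cells, and Otx2, a forebrain and epiblast factor, averaged 0.519 TPM in NPCs and 19.1 TPM in 2i cells (centred difference -2.69). Lhx2, a forebrain gene, reached TPM 10 in 4 of 54 NPCs and 2 of 94 2i cells, and no Hox gene was counted of the 5 that both tables list. Neuronal genes were not higher: of 3 counted, Stmn2 averaged 27.6 TPM in NPCs and 105 TPM in 2i cells (-4.41), Tubb3 36.7 against 57.3 TPM (-2.69) and Nefl 0.676 against 9.07 TPM (-1.62), and Dcx, Elavl3 and Syp were not counted. Of glial genes, Aldoc, Cnp and Aldh1l1 were counted and none was past the fold.

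**Figure D2:**
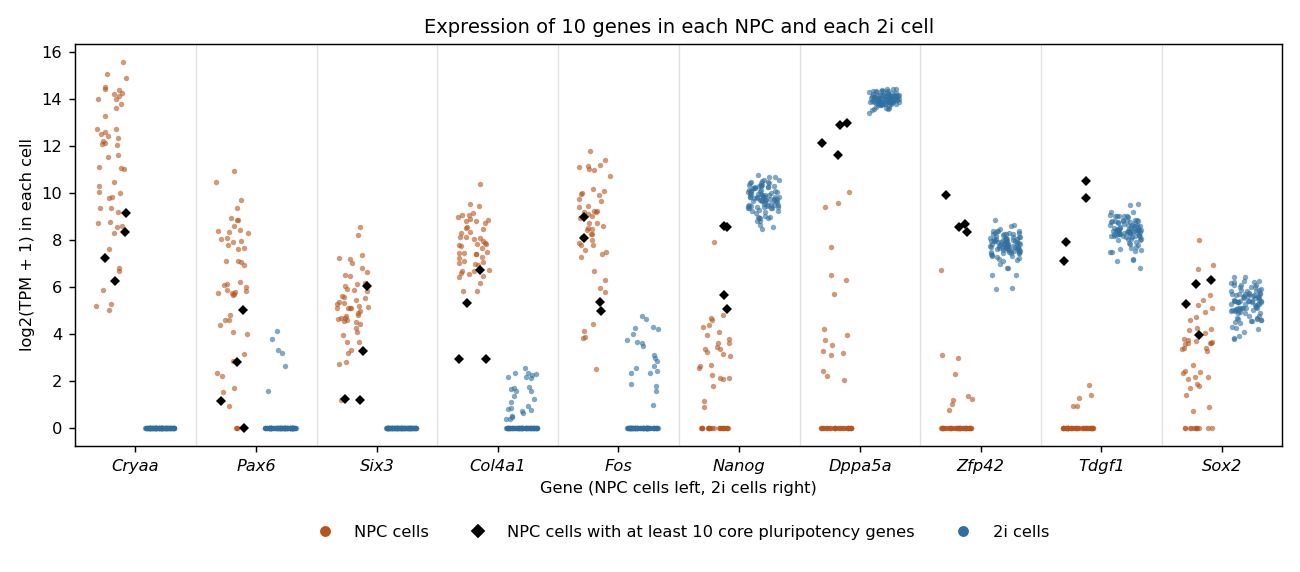
log2(TPM + 1) (vertical) of 10 genes in each of 54 NPC cells (left of each pair, brown; the 4 libraries with at least 10 core pluripotency genes as black diamonds) and 94 2i cells (right of each pair, blue). Cryaa and Six3 are listed at 0 in all 2i cells, the 2i cells form tight bands for Nanog, Dppa5a, Zfp42 and Tdgf1, and for Dppa5a and Tdgf1 the black diamonds stand above every other NPC.

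A lens gene had the widest difference of all counted genes. Cryaa, the lens chaperone alpha-A crystallin, had 31.3, 2149.7 and 48274 TPM in NPCs and was listed at 0 in all 94 2i cells, with a centred difference of 11.78. Every NPC library held it, over a wide span between cells. Cryab, its partner alpha-B crystallin, which also serves as a stress protein outside the lens, had 35.5, 1813 and 20916 TPM in NPCs and 0, 1.25 and 294 TPM in 2i cells (9.40), so that the highest 2i cells overlapped the lowest NPCs. Of 19 listed lens and eye genes 17 were in both tables, and all 12 that were counted were past the fold on the higher side in NPCs, 9 of them listed at 0 in all 2i cells. Those 9 could be counted only where they were high in NPCs, so the filter itself favoured this outcome. The beta crystallins Cryba1 (683 against 0 TPM), Crybb3 (202 against 0.646 TPM) and Crybb1 (105 against 0 TPM), the factors Maf (221 against 0 TPM) and Prox1 (25.9 against 0 TPM), and the fibre cell genes Lim2 (33.8 against 0 TPM) and Mip (21.3 against 0.47 TPM) were among them, NPC mean first. The other counted members were Bfsp2 (3.21), Crygs (3.15) and Cryba2 (2.78). Cryba4, Pitx3, Bfsp1 and Mitf were among those not counted, and Foxe3 and Crybb2 were not in both tables.

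The summed level of the 17 lens and eye genes ran, lowest, median and highest, at 128, 6035 and 64436 TPM in NPCs, against 0, 10.2 and 305 TPM in 2i cells. NPCs held 2 to 13 of these genes at TPM 10 and 2i cells 0 to 2, and 52 of 54 NPCs lay above every 2i cell. RNA of both alpha crystallins was thus found in every NPC library and that of Nes was not. On the serum plates Cryaa averaged 0.0477 and 7.01 TPM, and it was listed at 0 in Dgcr8 -/- cells.

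Genes of neural crest and mesenchyme were also higher. Of 20 that both tables list, 12 were counted and 11 were past the fold on the higher side, none on the lower, with 7 listed at 0 in all 2i cells. Here too the filter could count those 7 only where they were high in NPCs. Prrx1, a mesenchymal homeobox gene, had 0.319, 53.4 and 372 TPM in NPCs and was listed at 0 in all 2i cells. Smooth muscle actin Acta2 (329.7 against 3.53 TPM), the actin-binding Tagln (207 against 0 TPM), the fibrillar collagen Col3a1 (45.2 against 0 TPM), the crest factor Twist1 (27.4 against 0 TPM) and the calcium-binding S100a6 (875 against 19.3 TPM) and S100a4 (175 against 0 TPM) were among them, NPC mean first. Col1a1, Col1a2 and the crest factors Snai1 and Snai2 were not counted, and Foxd3 and Tfap2a were not in both tables. NPCs held 4 to 14 of the 20 genes at TPM 10 and 2i cells 1 to 4. Neural, lens and mesenchymal genes were thus higher on the same plate.

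**Figure D3:**
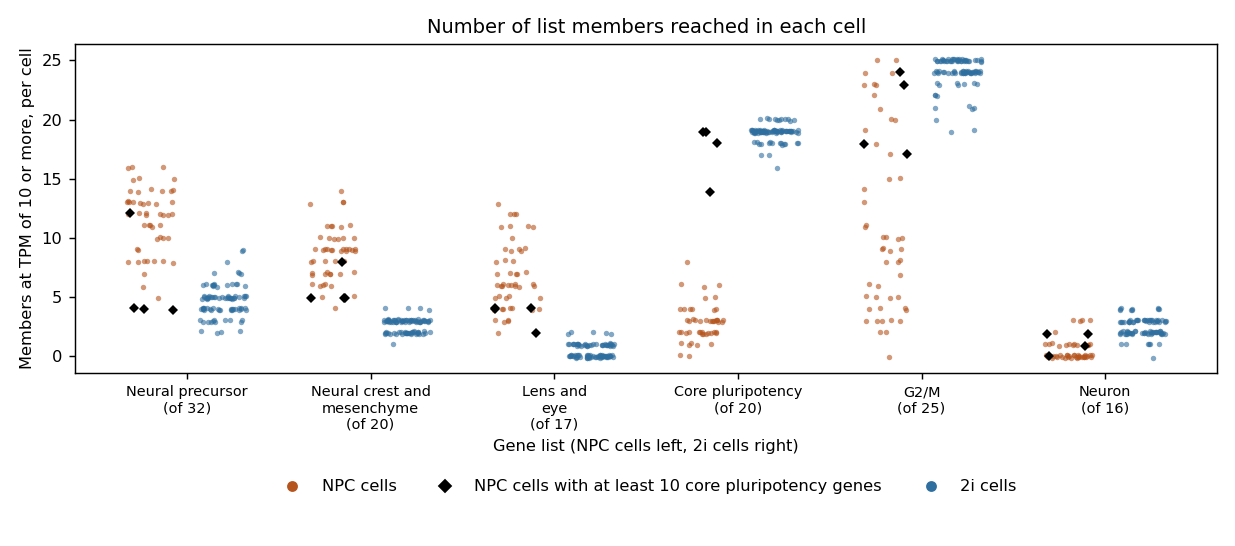
Number of list members at TPM of 10 or more (vertical) in each NPC (left, brown; the 4 libraries with at least 10 core pluripotency genes as black diamonds) and each 2i cell (right, blue), for 6 gene lists. NPCs hold 2 to 13 lens and eye genes against 0 to 2 in 2i cells, and 0 to 25 G2/M genes against 19 to 25.

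Type IV collagen set every NPC apart from every 2i cell. Col4a1, a chain of type IV collagen, had 6.6, 207 and 1310.2 TPM in NPCs and 0, 0 and 4.82 TPM in 2i cells, and its partner Col4a2, encoded head to head with it, had 6.82, 137 and 992 TPM in NPCs and was listed at 0 in all 2i cells. No 2i cell reached the lowest NPC for either chain. Of matrix genes, 19 of 24 were counted, 9 higher and 0 lower, including Lamb1 (126 against 3.62 TPM), Nid1 (234 against 20.6 TPM), Sparc (1429.7 against 283 TPM) and the protease inhibitors Timp2 (87.1 against 0 TPM) and Timp3 (109.8 against 0 TPM). Fibronectin, Fn1, lay between the limits (175 against 318 TPM, -0.56). Of adhesion genes 11 of 16 were higher, among them the surface protein Cd24a (353 against 4.4 TPM), Cdh11 (57.2 against 0.293 TPM) and the integrin chain Itgb1 (284 against 15.1 TPM), and the tetraspanin Cd9 was lower (359.6 against 1075 TPM). E-cadherin, Cdh1, reached TPM 10 in 29.6% of NPCs and 92.6% of 2i cells and lay between the limits (-1.73). Of cytoskeletal genes 12 of 24 were higher, with Marcks (452 against 6.59 TPM), Tpm1 (999 against 28.1 TPM), Cnn2 (397 against 16.8 TPM) and Tmsb4x (1965 against 146 TPM) leading, while Actb (1.40) and Actg1 (1.65) lay between the limits.

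The pluripotency network gave the mirror image. All 20 core genes were counted, and 16 were past the fold on the lower side in NPCs and none on the higher side (median -4.14). Dppa5a, an RNA-binding protein of pluripotent cells, had 0, 0 and 7923 TPM in NPCs and 10669, 16301 and 22048 TPM in 2i cells, with a centred difference of -10.51, the lowest of all counted genes. Nanog had 0, 3.24 and 386 TPM in NPCs and 356, 892 and 1751 TPM in 2i cells, and Pou5f1, which encodes Oct4, had 0, 0 and 409.7 TPM and 50.9, 142 and 263 TPM, NPCs first. Every 2i cell held all of these within a narrow span, and the median NPC held little or none. Without the 4 libraries the highest NPC held 1054 TPM of Dppa5a and 241 TPM of Nanog. For Pou5f1 the highest NPC was not among the 4, and its 409.7 TPM lay above every 2i cell. Without the 4, 16 of 19 counted core genes were lower, and the median centred difference was -4.71. The 4 libraries were chosen by these same genes, so lower NPC levels without them follow from that choice. Apart from those 4, 11 of 50 NPCs still reached TPM 10 for Nanog, 3 for Pou5f1 and 11 for Dppa5a, and 0 for Tdgf1, a Nodal co-receptor.

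The other core genes on the lower side were the oocyte and stem cell factors Dppa3 (77.7 against 358 TPM), Dppa4 (22.6 against 62.4 TPM) and Dppa2 (4.42 against 42.3 TPM), the zinc finger genes Zfp42 (40.4 against 225 TPM) and Sall4 (60.9 against 138 TPM), Fbxo15 (17.1 against 178 TPM), the growth factors Gdf3 (14.1 against 151 TPM) and Fgf4 (3.15 against 37.5 TPM), L1td1 (12.8 against 88.6 TPM), Mybl2 (16.6 against 90.6 TPM), the nuclear receptor Esrrb (6.41 against 48.98 TPM), Utf1 (15.04 against 50.8 TPM) and Tdgf1 (50.3 against 347 TPM), NPC mean first. For Tdgf1 the NPC mean came almost wholly from the 4 libraries, since it reached at most 2.54 TPM in the other 50. Tdgf1 was not alone in this. In the 4 libraries Fgf4 stood at 0, 110.6, 58.8 and 0 TPM and Gdf3 at 1.42, 306, 195 and 249 TPM. Utf1 stood at 49.3, 303, 212 and 221 TPM there. The NPC means above include these libraries, and for such genes they overstate the level in the other 50. The members between the limits were Sox2 (-1.32), Rif1 (-1.65), a telomere and replication timing factor, Lin28a (0.10), an RNA-binding inhibitor of let-7, of either sign across settings, that only 13 of 94 2i cells expressed at TPM 10, and Trim28 (1.09), a corepressor used in most cells.

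Naive pluripotency genes differed less evenly. Of 19 that both tables list, 15 were counted, 6 lower and 1 higher. Tcl1 (26.8 against 286 TPM), Nr0b1 (2.25 against 53.4 TPM), Klf5 (2.7 against 34.8 TPM), Pecam1 (1.92 against 18.3 TPM), Tbx3 (2.48 against 19.3 TPM) and Zfp57 (48.8 against 82.97 TPM) were past the fold on the lower side, NPC mean first. Klf4, a reprogramming factor that also acts in epithelia, had 0, 16.9 and 642 TPM in NPCs and 2.8, 41.5 and 141 TPM in 2i cells. The groups overlapped throughout and the centred difference was -0.31, between the limits and of either sign across settings. Klf2 (-0.53), Tet2 (-1.41), Prdm14 (-1.94), Sox15 (-1.38) and the LIF pathway genes Lifr (0.59), Il6st (-0.07) and Stat3 (1.91) also lay between, Lifr and Il6st with either sign across settings, and Fgfr2 (24.3 against 1.01 TPM) was the 1 member on the higher side. Nr5a2, Gbx2, Socs3 and Manba were not counted, and Tfcp2l1, present under its older name Tcfcp2l1, averaged 4.37 TPM in NPCs and 115 TPM in 2i cells (-5.31) and was left out of the list's counts.

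Targets and feedback inhibitors of FGF and ERK signalling were higher in NPCs. Of 24 genes 19 were counted, 15 past the fold on the higher side and none on the lower, 6 of them listed at 0 in all 2i cells. Those 6 could be counted only where they were high in NPCs. The immediate early gene Fos had 4.64, 401 and 3496 TPM in NPCs and 0, 0 and 26.2 TPM in 2i cells. Egr1, another immediate early factor, had 8.71, 203 and 4085 TPM in NPCs and was listed at 0 in all 2i cells, and Jun had 0, 30.9 and 235 TPM in NPCs and was likewise listed at 0 in 2i cells. Fos and Egr1 reached TPM 10 in 53 of 54 NPCs each and in 10 and 0 of 94 2i cells, and Jun in 43 of 54 NPCs. The ERK phosphatase Dusp6 (79.01 against 1.39 TPM), the Sprouty inhibitors Spry4 (25.9 against 0 TPM), Spry1 (40.6 against 0 TPM) and Spry2 (97.01 against 25.1 TPM) and the receptor Fgfr1 (89.6 against 4.64 TPM) were higher too, NPC mean first. Etv5 (-0.09) and Etv4 (-0.80), ERK-induced ETS factors, and the cyclin Ccnd1 (1.0) lay between the limits. Neither serum plate reached the NPC level: Fos averaged 1.31 and 1.78 TPM there, and Dusp6 12.3 and 11.2 TPM. In Dgcr8 -/- cells Fos averaged 34.05 and Egr1 20.1 TPM. Fos, Egr1 and Jun also belong to the list of stress and dissociation genes, of which 6 of 12 counted were higher, with Atf3 (96.9 against 0.573 TPM), Zfp36 (23.4 against 1.88 TPM) and Hspa5 (487 against 183 TPM), and whether handling of the cells had a part was not tested.

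Of Notch pathway genes 9 of 22 were counted and 6 were higher, against 3 of 11 among cells of like detection. The ligand Jag1 had 6.97, 91.2 and 1228 TPM in NPCs and 0, 2.22 and 9.55 TPM in 2i cells, nearly without overlap, and the target Hey1 averaged 27.9 TPM in NPCs and was listed at 0 in 2i cells. The receptors Notch1, Notch2 (9.36 against 2.02 TPM) and Notch3 (8.11 against 0.787 TPM) were higher, and Rbpj, their DNA-binding partner, lay between the limits (-1.79). Of Hedgehog genes 4 of 6 were higher: the co-receptors Gas1 (70.6 against 0.921 TPM) and Cdon (36.2 against 0.561 TPM), the factor Gli3 (20.02 against 1.4 TPM) and the transducer Smo (26.9 against 2.96 TPM). Ptch1, both receptor and target, was at 9.2 against 19.9 TPM (-1.63), between the limits. Wnt genes had 2 of 8 higher, Ctnnb1, which encodes beta-catenin (550.2 against 86.1 TPM), and Tcf7l2 (90.6 against 16.99 TPM), and the target Axin2 was not counted.

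In the BMP, Id and Nodal list 6 of 14 were higher and 2 lower. Id3, an inhibitor of helix-loop-helix factors induced by BMP, had 0, 455 and 2317 TPM in NPCs and 0, 0 and 288 TPM in 2i cells. It was high in most NPCs and in a minority of 2i cells, and the serum plates lay in between on average, at 216 and 171 TPM. Id1 (67.4 against 1.47 TPM), Bmp4 (14.6 against 0 TPM), Bmpr1a (37.9 against 4.41 TPM), Smad3 (35.6 against 2.85 TPM) and Smad5 (31.97 against 5.04 TPM) were the other higher members, and Tdgf1 and Nodal (4.25 against 14.1 TPM) the lower ones, NPC mean first. Lefty1 and Lefty2, Nodal targets, were not counted.

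Proliferation genes were lower on average in NPCs and uneven among the cells. Of 25 G1/S and replication genes 12 were past the fold on the lower side and none on the higher, and of 25 G2/M genes 12 and none. Among cells of like detection the lower counts were 16 and 10, and with the 3 libraries that stood apart they were 11 and 4. Ccnb1, cyclin B1, had 0, 17.3 and 2219 TPM in NPCs and 153, 447 and 1094 TPM in 2i cells, and Mki67, a marker of cycling cells, had 0, 14.2 and 187 TPM in NPCs and 0.475, 13.7 and 28.6 TPM in 2i cells. NPCs spread from 0 to above every 2i cell for both genes, while every 2i cell held Ccnb1. Per cell, NPCs reached TPM 10 in 0 to 25 of the 25 G2/M genes (median 10) and 2i cells in 19 to 25 (median 24), and 40 of 54 NPCs lay below every 2i cell. The other 14 NPCs lay within the 2i range. No phase was assigned to any cell.

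G1 regulators went the other way. Cyclin D2, listed as Ccnd2 and with identical values as CYL2, had 5.29, 192 and 1154 TPM in NPCs and was listed at 0 in all 2i cells. Of 12 counted G1 cyclins and inhibitors 5 were higher and none lower (5 higher and 1 lower among cells of like detection, 2 and none with the 3 libraries that stood apart), including the inhibitors Cdkn1c (53.5 against 0.355 TPM), Cdkn2b (33.6 against 3.01 TPM), Cdkn2c (14.6 against 0.769 TPM) and Cdkn1a (197 against 61.1 TPM), NPC mean first. Ccnd1 (1.0) and Ccnd3 (-1.40) lay between the limits. Ccnd2 is also a known let-7 target, and of the 17 counted Lin28 and let-7 target genes it, the chromatin protein Hmga2 (101 against 2.62 TPM), Lin28b (31.8 against 0.692 TPM) and Tgfbr1 (20.8 against 2.58 TPM) were higher and Hmga1 lower (95.4 against 283 TPM), with 3 lower without the 4 libraries. Myc averaged 14.3 TPM in NPCs and was listed at 0 in 2i cells, and Mycn lay between (-1.75). Of p53 targets 7 of 17 were higher (7 among cells of like detection, 4 with the 3 libraries that stood apart), led by Mdm2 (216 against 29.1 TPM) and Ccng1 (187 against 38.7 TPM), and Gadd45b was lower (10.9 against 27.3 TPM) at the edge of the limit. The widest p53 target difference was 2.88, so the higher calls in the main count rest on subtracting the median of -0.96.

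**Figure D4:**
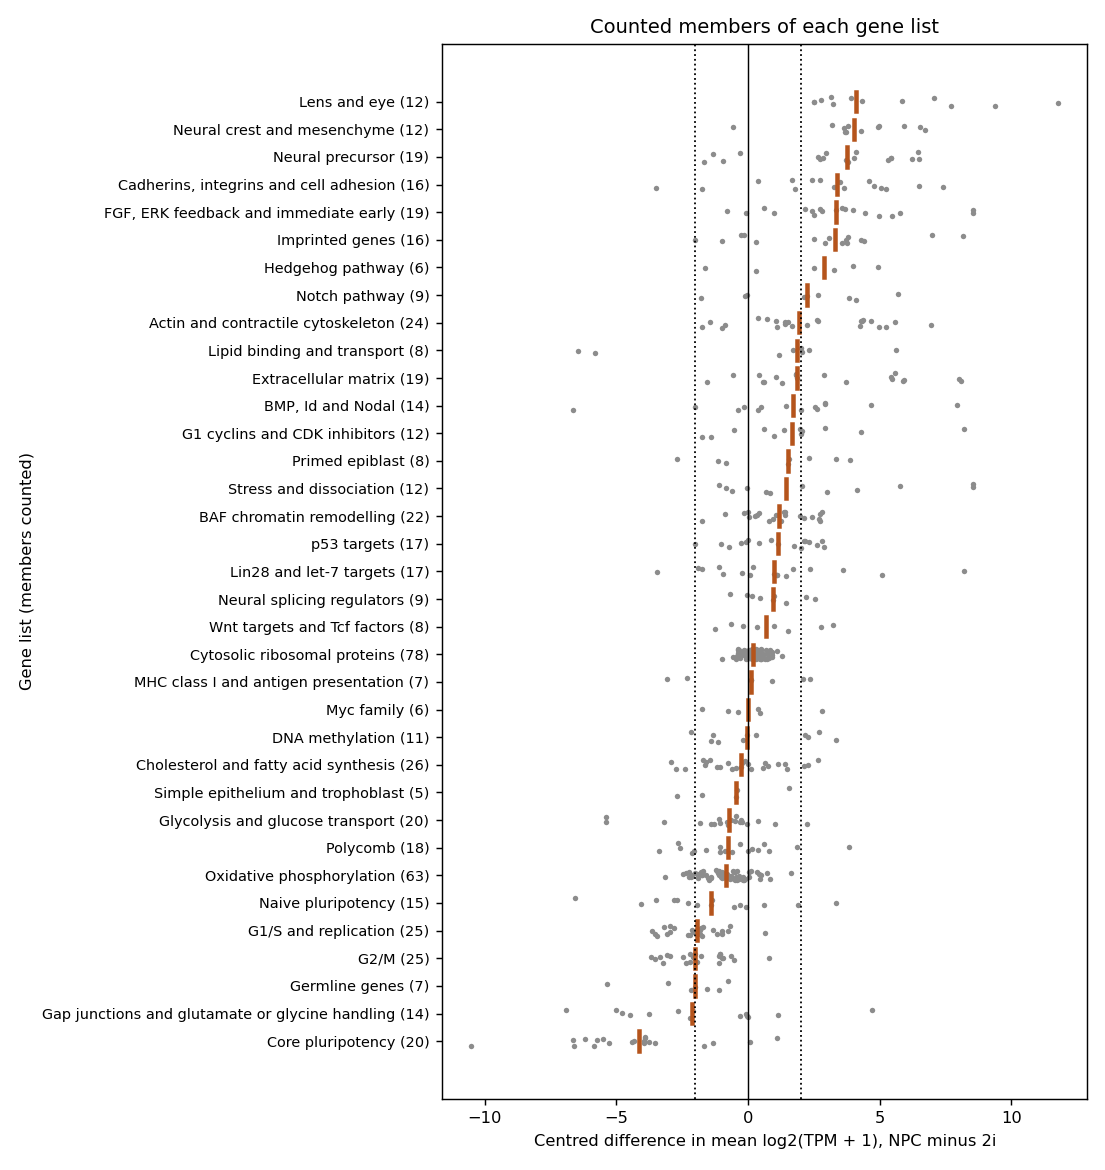
Centred difference in mean log2(TPM + 1), NPC minus 2i (horizontal), of the counted members (grey points) of each gene list with at least 5 of them, with the list's median (brown bar); the number of counted members is in brackets and dotted lines mark a difference of 2. Lens, crest and neural precursor lists stand highest, with medians of 4.12, 4.04 and 3.77, and core pluripotency lowest, at -4.14.

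Chromatin regulators differed by family. Of DNA methylation genes 11 of 13 were counted: the de novo methyltransferase Dnmt3a (27.7 against 1.36 TPM), the oxidase Tet3 (17.3 against 1.68 TPM), the glycosylase Tdg (102 against 15.2 TPM) and Mbd2 (18.1 against 2.39 TPM) were higher and Tet1 lower (11.1 against 35.6 TPM). The higher calls of Tet3 (2.71), Tdg (2.30) and Mbd2 (2.19) rest on subtracting the median of -0.96. Dnmt1 (-0.03) and Dnmt3b (-1.14) lay between the limits. Of Polycomb genes 5 of 18 were lower, the PRC2 subunits and partners Mtf2 (35.05 against 276 TPM), Eed (60.98 against 157 TPM) and Jarid2 (26.7 against 95.8 TPM) and the PRC1 members Cbx7 (1.99 against 10.99 TPM) and Pcgf1 (4.19 against 19.03 TPM), and Phc2 was higher (65.5 against 2.31 TPM). Among cells of like detection 4 of 18 were lower, and 2 with the 3 libraries that stood apart. The catalytic Ezh2 lay between the limits (82.2 against 87.9 TPM, -0.89). Of BAF remodelling subunits 6 of 22 were higher and none lower: Smarca2 (23.8 against 2.1 TPM), Smarcd3 (23.99 against 0.578 TPM), Smarcc2 (27.02 against 2.65 TPM), Arid1b (18.6 against 5.46 TPM), Pbrm1 (151 against 30.1 TPM) and Smarce1 (175 against 33.4 TPM). The widest BAF difference was 2.82, so these 6 calls rest on subtracting the median of -0.96 and do not hold as deposited. In mouse stem cells Smarcc2 and Smarca2 are known as subunits that become common on differentiation, in exchange for Smarcc1 and Smarca4, which lay between the limits here (1.38 and 0.97). Of germline genes 7 were counted, and Tuba3a (9.71 against 502 TPM), Dazl (0.366 against 34.9 TPM) and Syce1 (1.82 against 18.5 TPM) were lower, with 6 of 8 lower among cells of like detection. Hormad1 and Aurkc, listed in the stem cell table alone, reached TPM 10 in 89.4% and 88.3% of 2i cells.

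Imprinted genes, expressed from 1 parental copy, were mostly higher in NPCs, with 11 of 16 past the fold and 1 lower. The fetal growth factor Igf2 had 0, 168 and 1559.8 TPM in NPCs and was listed at 0 in all 2i cells. Mest had 2.71, 332 and 2015 TPM in NPCs and 0, 3.12 and 36.4 TPM in 2i cells. Gnas (539 against 38.9 TPM), Cdkn1c, Ndn (97.02 against 4.23 TPM), Slc38a4 (133 against 13.5 TPM), Igf2r (54.96 against 2.85 TPM) and Grb10 (87.7 against 5.92 TPM) followed, NPC mean first, and Peg3 (3.06), Sgce (2.95) and Peg10 (2.51) were also higher. The noncoding RNA Rian was lower (6.96 against 35.4 TPM, -2.03), and Meg3 of the same locus lay between (-0.15). These levels do not say which copy was read.

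In the larger metabolic lists few genes were past the fold, but small differences ran through 2 of them. Of oxidative phosphorylation genes 53 had a centred difference below 0 and 10 above it, and of glycolytic genes 17 and 3. Both list medians, -0.84 and -0.71, kept their sign in 17 of 17 other settings. Threonine dehydrogenase, Tdh, which mouse stem cells use to feed one-carbon metabolism, had 0, 0 and 1304 TPM in NPCs and 225, 488 and 1103 TPM in 2i cells. Its partner Gcat (10.4 against 106 TPM), the serine and glycine enzymes Shmt1 (23.5 against 73.5 TPM), Shmt2 (30.3 against 55.8 TPM) and Psat1 (105 against 267 TPM), the transporter Slc7a3 (17.1 against 88.98 TPM) and the gap junction gene Gjb5 (2.99 against 22.7 TPM) were lower too, among 8 of 14 in that list. Gja1, which encodes connexin 43, was higher (313 against 13.7 TPM). Of glycolytic genes 3 of 20 were lower, Ldhb (102 against 629 TPM), the glucose transporter Slc2a3 (16.1 against 471 TPM) and Pfkp (7.18 against 42.2 TPM), and the transporter Slc2a1 was higher (133 against 37.8 TPM). The lower count was near the 12% of all counted genes on that side, and the higher count was below their 13.8%. Oxidative phosphorylation had 8 of 63 lower and none higher (median -0.84), near the 12% of all counted genes on that side, with 4 lower among cells of like detection and 2 with the 3 libraries that stood apart. Sterol and fatty acid synthesis had 3 higher and 3 lower of 26, near the shares of all counted genes, and none higher among cells of like detection. Of lipid carriers, Apoe (25.4 against 360.5 TPM) and Fabp3 (141 against 679 TPM) were lower, and Clu (324 against 3.64 TPM), Fabp5 (658 against 155 TPM) and Lpl (26.2 against 7.93 TPM) were among those higher, 4 in all against 5 among cells of like detection and 1 with the 3 libraries that stood apart. No cytosolic ribosomal protein gene of 78 was past the fold (median 0.20), a median that kept its sign in 11 of 17 other settings.

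The remaining lists held few members past the fold. The MHC class I light chain B2m (208 against 34.6 TPM) and the peptide transporter Tap1 (8.43 against 0.264 TPM) were higher, and H2-D1 (19.3 against 96.3 TPM) and H2-T23 (387 against 2303 TPM) lower. Ptbp2, a splicing factor of neural cells (46.2 against 6.46 TPM), and Celf2 (10.1 against 1.36 TPM) were higher, while Ptbp1 (-0.03) and the repressor of neuronal genes Rest (-0.69) lay between. The widest higher differences in the MHC and splicing lists were B2m (2.35) and Ptbp2 (2.56). The higher calls in both lists thus rest on subtracting the median of -0.96. Among early epiblast genes Sox4 (13.2 against 0 TPM), Dnmt3a and Sall2 (9.88 against 0.788 TPM) were higher and Otx2 lower, with 3 higher and 2 lower among cells of like detection and 1 higher with the 3 libraries that stood apart. Of endoderm genes the matrix genes Col4a1 and Col4a2 alone were past the fold (5 of 6 among cells of like detection), and Gata4, Gata6, Sox17 and Foxa2 were not counted. Of vessel and mesoderm genes Pecam1 was counted, and of simple epithelial genes Cldn4 was lower (0.437 against 17.5 TPM).

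Several of the 30 genes with the widest differences lie outside these lists. On the higher side were Anxa2, a membrane-binding annexin (1687 against 7.32 TPM, 9.56), D0H4S114, an older name of Nrep (585 against 0.762 TPM, 9.17), the protease inhibitor Serpine2 (494 against 1.63 TPM, 8.52), the Wnt carrier Wls (411 against 1.44 TPM, 7.76) and Igfbp3, a carrier of insulin-like growth factors (276 against 0.453 TPM, 7.73). On the lower side were the glutathione transferases Gsta4 (93.9 against 1477 TPM, -7.63) and Gstp2 (8.83 against 629 TPM, -7.52), the nucleoside and amino acid enzymes Upp1 (51.97 against 681 TPM, -7.39) and Asns (48.2 against 1044 TPM, -7.35), the muscle light chain gene Mylpf (8.94 against 424 TPM, -6.99), the apolipoprotein Apoc1 (0.922 against 247 TPM, -6.70), Calcoco2 (0.835 against 219 TPM, -6.51) and Gm10022 (6.33 against 215 TPM, -6.48). Hist2h4 (2.04 against 729 TPM, -7.71) and Gstp2 have near-identical copies and the counting of shared reads can split them, so their values are uncertain. Trim6 (52.3 against 3578 TPM, -6.50) is uncertain as well, since it averaged 1251 and 189.8 TPM on the pair of serum plates. Zmynd8, chosen after its values were seen, shows the same, at 15032 and 743 TPM on the serum plates.

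Few genes separated every NPC from every 2i cell. Of the counted genes 24 (0.229%) had all 54 NPCs above all 94 2i cells, and 21 (0.201%) had all NPCs below. Cryaa, Egr1, Ccnd2, Col4a1, Col4a2, Maf, App, Six3, Cdh2, Prrx1 and Timp2 were among the first, App encoding the amyloid precursor protein. Dppa5a, Rnf17, Apoc1, Calcoco2, Ooep, Terf1 and Aqp3 were among the second, and Rnf17, a germline Tudor protein, had 42.3, 132 and 406 TPM in 2i cells and was listed at 0 in all 54 NPCs. Without the 4 libraries the counts were 31 (0.296%) and 75 (0.716%), and Nanog, Tdgf1, Tcl1, Gdf3, Fgf4, Gsta4 and Tdh then had every NPC below every 2i cell. The 4 libraries were set apart by core pluripotency genes, Nanog, Tdgf1, Gdf3 and Fgf4 among them. Separation of such genes without those libraries therefore follows from the choice and is no separate result. Leaving out the 4 libraries thus moved the second count by over 3 times and the first by much less.

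Set beside all 4 stem cell plates, each centred on 2i over the same genes, NPC means lay above every plate for 3970 of the counted genes (37.9%) and below every plate for 3690 (35.2%). Of the 1450 genes higher than in 2i, 1418 were above all 4 plates, and 697 of them by at least 2 (6.66% of counted genes). Of the 1254 lower genes, 1224 were below all 4, and 540 by at least 2 (5.16%). The same 2i cells stand in both comparisons. All 15 neural precursor, 12 lens and 11 crest genes past the fold were above every stem cell plate, and all 16 core pluripotency genes below every one. That is near the share of all genes past the fold, 97.8% on the higher side and 97.6% on the lower, and so is not particular to these lists. Among the stem cell plates, by the same rule, 2i cells had 192 genes (2.26%) higher and 498 (5.87%) lower than serum plate 1, 197 (2.36%) and 652 (7.82%) than serum plate 2, and 127 (1.26%) and 277 (2.74%) than Dgcr8 -/- cells. Exceptions on the NPC-higher side included Id1, Bmp4, Myc, Tmsb4x, Tpm2 and the p53 targets Pmaip1 and Perp, which at least 1 stem cell plate held at or above the NPC level.

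The bulk library of the 2i culture, made apart from the single cells, was used as a check on the 2i cells. Of the 1430 NPC-higher genes it lists, 98 (6.85%) reached TPM 10 in it, with a median of 0.634 TPM, against 955 of the 1254 NPC-lower genes (76.2%), with a median of 23.9 TPM. The median over all counted genes it lists was 3.7 TPM. Both classes were set in part by levels in 2i cells, so this split bears on the 2i side alone and says nothing on the NPCs. Across 10450 counted genes, which are not independent replicates, Spearman's rho of the bulk library was 0.909 with the 2i cell mean and 0.480 with the NPC mean. Cryaa, Egr1, Igf2, Maf, Cdh2 and Jun were listed at 0 in the bulk library and Ccnd2 stood at 0.0329 TPM. No bulk library of NPCs was analysed here.

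Chromatin in the 2i culture was read by ChIP-seq, 1 library per mark, as read counts in a window of 1000 bases that the table lists for each gene. H3K27me3, the Polycomb mark of repressed developmental genes, had a median of 20 reads over the 1160 windows of genes higher in NPCs, 13 over 1065 windows of genes lower in NPCs, and 13 over 6605 windows of genes between, with whole cell extract at 27, 29 and 30 reads. At least 50 reads were found in 15.2%, 1.78% and 1.44% of these windows, in the same order, and in 8.44% of all windows. Genes at TPM 10 in under 10% of 2i cells, those too rare to be counted included, were set apart: 23.1% of the 720 such windows higher in NPCs reached 50 reads, against 16.02% of the 6254 that were not. H3K4me3, the mark of open promoters, had medians of 250.5 and 127 reads in these 2 classes. With 1 library per mark there is no replicate check and no test.

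**Figure D5:**
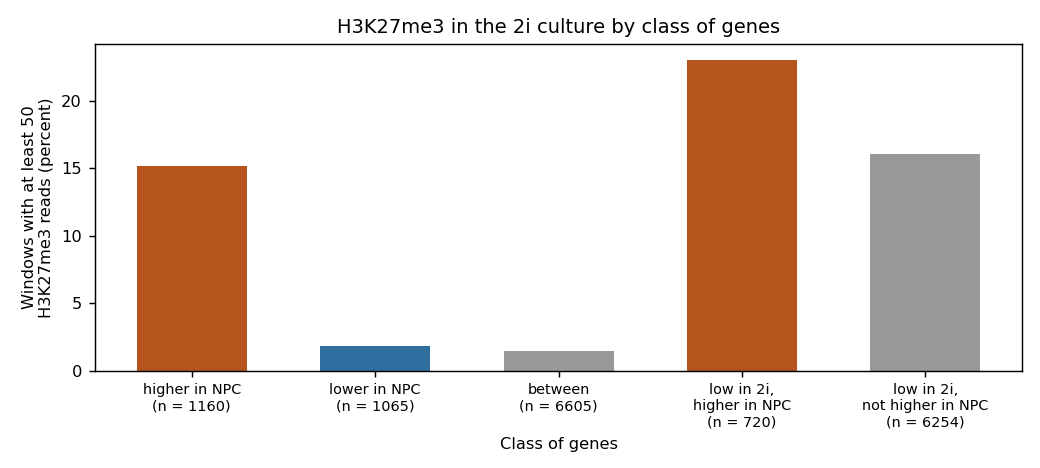
Percent of windows with at least 50 H3K27me3 reads (vertical, from 0) in the 2i culture, for genes past the fold in either direction, genes between, and genes low in 2i cells split by whether they were higher in NPCs; n is the number of windows and no error can be given for 1 library. The classes stand at 15.2%, 1.78%, 1.44%, 23.1% and 16.02%.

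Among named genes the mark was uneven. In 2i, Col4a1 had 153 H3K27me3 reads and 1024 H3K4me3 reads, in a window that overlaps that of Col4a2. Maf had 94 H3K27me3 reads, Msx1 86, Igf2 82, Prrx1 68, Sox9 67 and Dach1 65. Ccnd2 had 61, Sox11 60, Cdh2 58 and Pax6 55, against a median of 16 over all windows. These genes all reached the read limit used above for this mark, but most genes of the main lists did not. Of those higher in NPCs, 6 of 15 neural precursor, 2 of 11 crest and 3 of 12 lens genes reached it. Over all windows of genes higher in NPCs the share was 15.2%, and 23.1% for those low in 2i cells. The crest and lens counts lie near these shares. Hes1 had 14 reads and Col3a1 13. The crystallin genes were not alike: Cryaa had 40 reads and Cryba2 66, but Cryab 15, Cryba1 18 and Crybb1 15. Nanog had 11, Dppa5a 15, Zfp42 14 and Tdgf1 14, and Esrrb, at 92, was the exception among core pluripotency genes. H3K4me3 stood at 700 reads on Nanog and 716 on Zfp42, against 11 on Cryaa, 28 on Pax6 and 41 on Six3. Of the 4 genes whose promoters are printed, Nanog, with the fewest CG, thus had the most H3K4me3 and the least H3K27me3 in 2i. Whether the windows cover those promoters is not known, as the builds differ.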

How the data were processed

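Single-cell expression was deposited by the authors as the natural log of TPM + 1, read from the values of a table of NPCs and a table of stem cells. Both were turned back into TPM, and levels were compared as log2(TPM + 1). Bulk TPM and ChIP-seq read counts of the 2i culture were used as deposited. Bowtie, RSEM and mm9 appear in the submitters' processing notes without role or version, and nothing used here states the filters or where the ChIP windows lie. Members, gene lists and comparisons were chosen with earlier results of these data known. Named genes were the 15 widest centred differences in each direction and the members of 41 lists, a few of which are not reported here. In a check on simulated data the steps recovered the changes put in. That check drew both groups from 2i cells and changed only widely expressed genes. It therefore says nothing on genes seen on 1 plate alone or on the NPCs' own spread. Each group is 1 plate, so there was no test, and depth is unknown. Doublets were not called, and the main values hold every cell. The limit of 10 core genes that set 4 NPC libraries apart and the 50-read H3K27me3 limit were chosen after seeing the data. Date-like names (29 in the NPC table, 56 in the stem cell table) were left out. Of the counted names, 1137 repeat another name's values. A planned check of promoter base content was void, since 911 of 1450 and 872 of 1254 names matched the promoter table, under 80%. Python 3.11.15, numpy 2.4.6, pandas 2.3.3, scipy 1.17.1 and matplotlib 3.10.9 were used.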

Additional observations from a re-analysis of the deposited data

How the results depend on the processing

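No paired analysis was possible because each group is 1 plate and its cells carry no shared replicate number. The main counts were 1450 genes higher and 1254 lower. As deposited, without centring, they were 616 and 2720, so that the higher share of all genes past the fold moved to 18.5% from 53.6%. They were 272 and 533 with log2(TPM + 10), 717 and 2441 with no filter on low values, 625 and 602 with a filter at 50% of cells, 2943 and 2804 at a difference of 1, and 604 and 523 at a difference of 3. Quantile normalisation (1296 and 1237), TPM rescaled over shared names (1412 and 1209), mean TPM (1375 and 1223), each repeated name once (1271 and 1109), unlisted names taken as 0 (1460 and 1254) and leaving out the cells with fewest genes (1446 and 1258) moved them by less than 1.5 times. Cells in the shared range of detected genes gave 1156 and 1176, and 1398 and 1523 without the 3 libraries that stood apart, a setting chosen after seeing the data. Without the 4 mitochondrial-type names they were 1447 and 1272. Between the serum plates, 36 genes lay past the fold in either direction in the main count, 14 with log2(TPM + 10), 270 at a difference of 1 and 10 at a difference of 3. Genes with a share lower by 50 points numbered 471 at TPM 1, and those higher 191 at TPM 50. H3K27me3 windows of genes higher and lower in NPCs reached 30 reads in 35.1% and 5.26%, and 80 reads in 2.59% and 0.282%. The median of the neuron list was 0.081 and that of the mesoderm and blood vessel list 0.16 with no filter, each below 0 in the main count. Other list medians near 0 took either sign: that of the Myc family kept its main sign in 9 of 17 other settings, ribosomal proteins in 11, MHC class I in 14, cholesterol synthesis and DNA methylation in 15 each, Wnt and lipid carriers in 16 each, and glia in 14 of 16. The lipid carrier median was -1.43 with the filter at 50% of cells. The causes of these moves were not tested.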
